A study of Homo sapiens with 16 samples.

Results

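The genes described here are 35 splicing factor genes: 22 of the heterogeneous nuclear ribonucleoprotein (hnRNP) and polypyrimidine tract binding (PTB) families, and 13 of the SR and TRA2 families. They were chosen by gene symbol, with earlier results of these data known, and all 35 were found in both deposited tables. The table of the libraries made after removal of ribosomal RNA holds 60669 genes. RNA came from HMC3, an established human cell line labelled as microglial, with the genotype WT or METTL3 KO. METTL3 is the catalytic subunit of the enzyme complex that writes N6-methyladenosine (m6A) on RNA. No treatment or time point is given, and how many clones the knockout line comprises is not given in the sources used here. Of 16 libraries, 10 were made by Smart-seq2, which primes on the poly(A) tail (5 WT and 5 METTL3 KO), and 6 with a strand-preserving kit after ribosomal RNA had been removed (3 WT and 3 METTL3 KO), each from 100 ng of RNA.

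hnRNP proteins coat nascent transcripts and, depending on where they bind, repress or promote the use of an exon. SR proteins carry an RNA recognition domain and a tail rich in arginine and serine, and mostly promote exon inclusion. Both families are abundant in proliferating cells, and many of their genes hold alternative exons with a premature stop codon, through which the protein can lower its own mRNA by nonsense-mediated decay (NMD). HNRNPC and HNRNPA2B1 are known as proteins whose binding to RNA can depend on m6A, and SRSF3 and SRSF10 as partners of the nuclear m6A reader YTHDC1.

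The rRNA-depleted libraries were available as TPM, a measure in which each gene's reads are divided by its length and every library has the same total. Reads recovered from the TPM ranged from 266130 to 487243 in the WT libraries and from 512597 to 1267177 in the knockout libraries. Knockout libraries 1 and 2 did not differ detectably beyond the sampling noise (chi-square test over 10120 genes, 1.02 per degree of freedom, p = 0.065), whereas each other pair of 1 genotype did differ, so these 2 libraries were averaged and counted as 1 sample. The comparison therefore rests on 3 WT and 2 knockout samples. Whether the libraries came from separate cultures is not given in the sources used here, so that p-values measure the spread between these samples, which may be technical. The targeted gene, METTL3, did not check the labels: it stood at 31.2, 31.6 and 25.4 TPM in the WT libraries and at 39.2, 39.96 and 42.7 TPM in those labelled knockout (limma adjusted p = 0.106), and in the authors' deposited table for the poly(A) libraries it had a log2 value of 0.09 (adjusted p = 0.654). The files do not show which part of METTL3 the knockout removed, so all directions below are those of the libraries labelled knockout. Of 14 microglial markers, 10 were at 0 in all 6 libraries, among them AIF1, CX3CR1, P2RY12, TMEM119 and PTPRC, so the cell type label is not borne out by its defining markers. Summed over the list, microglial markers took 47.0 to 67.3 TPM in WT and 65.4 to 90.6 in the knockout libraries. The 10 fibroblast and pericyte markers (LUM and FAP at 0) summed to 10818 to 13274 TPM in WT and 3390 to 3555 TPM in the knockout libraries, and their part in the results below was not tested.

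Most of these splicing factor genes were higher in the rRNA-depleted libraries labelled knockout. With limma on log2(TPM + 1) and a Benjamini-Hochberg adjusted p under 0.05 over 14789 genes, 22 of the 35 rose (62.9%) and 3 fell (8.57%), 25 in all, beside 22.9% of all genes tested called higher, 12.4% called lower and 35.3% called in either direction. All 35 passed the filter on low values. The median log2 change of the members was 0.98, against 0.41 for all genes tested, so the members' median lay 0.57 above that of all genes. Among the hnRNP and PTB genes 15 rose, 1 fell (HNRNPM) and 6 did not pass, and among the SR and TRA2 genes 7 rose, 2 fell (SRSF3 and SRSF9) and 4 did not pass.

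The number of rises depended on how libraries were put on one scale. With median ratio scaling, which moved the median of all genes from 0.41 to 0.12 and the share of higher among all calls from 64.8% to 49.7%, 15 members were called higher and 3 lower (all genes: 16.4% and 16.5%). The members no longer called higher were HNRNPA1, HNRNPA2B1, HNRNPH1, HNRNPUL2, SRSF2, SRSF5 and TRA2A. Across all genes the log2 change was larger where transcript GC content was lower (Spearman rho -0.37 over 14669 genes), and 29 of the 35 members lay below the median GC content of all genes tested (members' median 41.1%, all genes 48.5%). GC content was that of the longest annotated transcript of each gene, of any type, which need not be the form expressed. With the trend on GC content removed in each library, 7 members were called higher and 8 lower (all genes: 11.4% and 15.1%). Those 7 were all hnRNP or PTB genes: HNRNPDL, HNRNPF, HNRNPH3, HNRNPK, HNRNPL, HNRNPUL1 and PTBP1. The 8 called lower were HNRNPA0, HNRNPD, HNRNPLL, HNRNPM, HNRNPU, SRSF1, SRSF3 and SRSF9. Leaving out knockout library 3, which leaves a single knockout sample whose spread is taken from the WT samples, gave 13 higher and 2 lower. The share of all genes called without knockout library 3 is not given. HNRNPDL, HNRNPF, HNRNPH3, HNRNPK, HNRNPL and PTBP1 were called higher, and SRSF3 and SRSF9 lower, in all 18 alternative settings that kept the threshold.

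**Figure D1:**
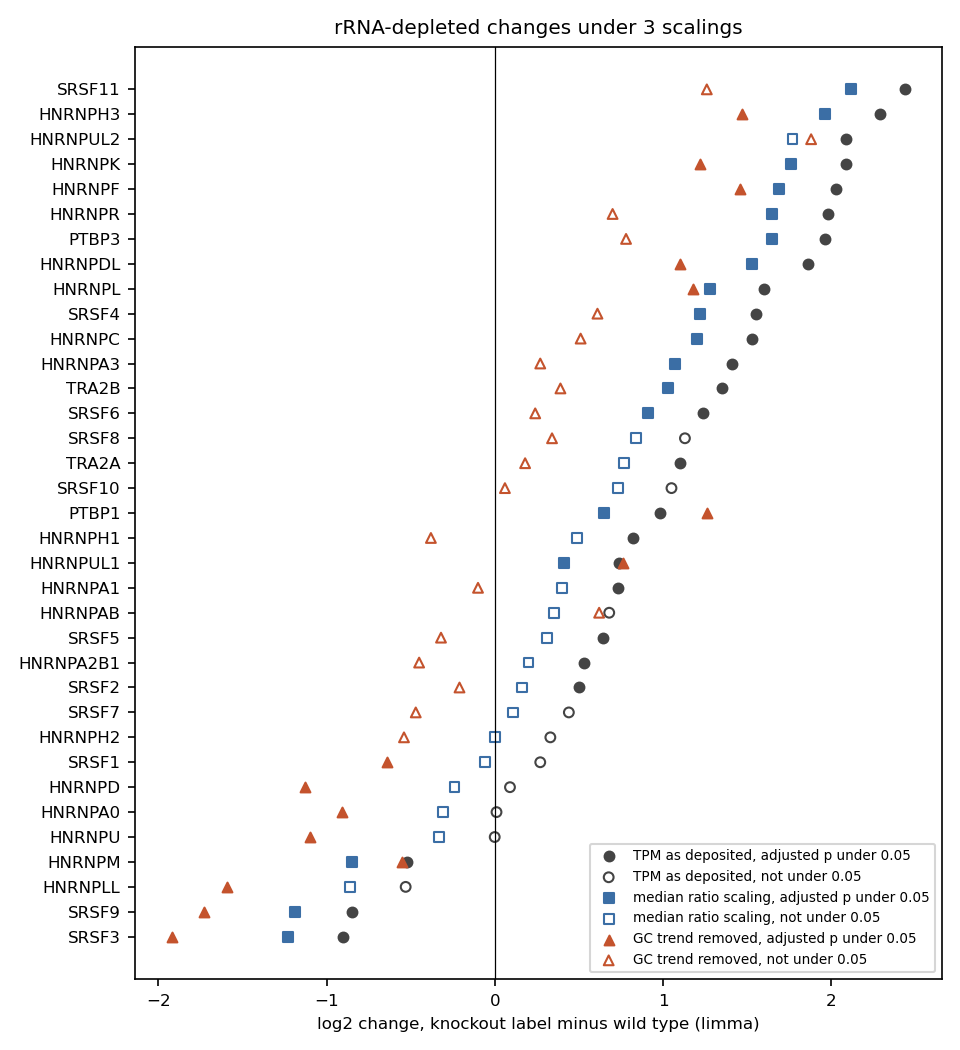
The log2 change of each gene, knockout minus WT, in the rRNA-depleted libraries, with TPM as deposited, with median ratio scaling and with the trend on GC content removed. Filled symbols have a limma adjusted p under 0.05. SRSF3, SRSF9 and HNRNPM lie below 0 on all 3 scales, HNRNPK, HNRNPF and HNRNPH3 lie above 0 on all 3, and HNRNPA1, HNRNPA2B1, HNRNPH1, SRSF2 and SRSF5 change side when the GC trend is removed.

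Stop codons in separate exons are shown because such exons are a means by which some SR genes can lower their own mRNA. In GENCODE 29, all 13 SR and TRA2 genes and 14 of the 22 hnRNP and PTB genes have an annotated NMD transcript, 27 of the 35 in all, against 43.6% of 11784 protein-coding genes tested. In 4 SR genes (SRSF3, SRSF4, SRSF6 and SRSF7) and 2 hnRNP genes (HNRNPLL and HNRNPU) the stop of such a transcript was found in an exon that overlaps no exon of the gene's protein-coding transcripts. The search left out last exons, stops split between exons and stops less than 12 bases from an exon end. More of the genes may therefore have such a stop. The capitals mark that stop codon, with 12 bases on each side, read 5′ to 3′ on the gene's strand of GRCh38. SRSF3 and SRSF4 each have 1 more such exon (98 and 175 bases), and that of SRSF7 has a longer form of 449 bases. The exons shown, 1 per SR gene, were picked for display. The exon shown is 456 bases long in SRSF3 (plus strand, chr6:36599840-36599866), 195 in SRSF4 (minus strand, chr1:29160006-29160032), 268 in SRSF6 (plus strand, chr20:43459290-43459316) and 276 in SRSF7 (minus strand, chr2:38749140-38749166).
SRSF3: ctcaccaccctcTGAatctgcattagc
SRSF4: tgttccatttgcTGAccttgggttacc
SRSF6: gccttttgccatTAGacgcagggtgat
SRSF7: aatttgagacggTGAtcgccgtaacag
Of these 4 genes, SRSF3 fell, SRSF4 and SRSF6 rose and SRSF7 did not pass in the rRNA-depleted libraries. Gene-level TPM sum the transcripts with and without these exons, so their use was not measured.

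The letters GGACT, a common form of the m6A consensus, were searched on the sense strand of the coding sequence of each gene, since m6A is what METTL3 writes. They occurred in 24 of the 35 members, against 75.4% of 11768 coding genes tested, at a median of 1.13 per kb in the members and 0.98 per kb in all. The windows below show 10 bases on each side, with GGACT in capitals, for genes called higher in both library types (HNRNPC, minus strand, chr14:21230319-21230343; HNRNPL, minus strand, chr19:38837448-38837472; HNRNPUL1, plus strand, chr19:41302680-41302704) and for the SR genes that fell in the rRNA-depleted libraries (SRSF3, plus strand, chr6:36596776-36596800; SRSF9, minus strand, chr12:120465699-120465723), all in coding exons.
HNRNPC: actttcaacgGGACTattatgatag
HNRNPL: cagctcctctGGACTgctggagtgg
HNRNPUL1: cagatgttggGGACTtcctggatga
SRSF3: cctgtccattGGACTgtaaggttta
SRSF9: gagttccccaGGACTtatggaggtc
SRSF9 had the most per length, 4.52 per kb, and the coding sequence of HNRNPM, which also fell, had 0. Over the 35 members the number per kb and the log2 change had a Spearman rho of -0.06 (all coding genes -0.10). Only the longest coding sequence of each gene was searched, and untranslated regions were left out. Each window shown is the one nearest the stop codon that fitted within a single exon. A match is a description of the letters, and methylation was not measured in these libraries.

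The core hnRNP proteins of the A, B and C groups package pre-mRNA, and HNRNPC in addition holds back cryptic exons that arise from Alu elements. HNRNPC stood at 64.9, 76.5 and 46.7 TPM in WT libraries 1 to 3 and at 194, 171 and 177 TPM in knockout libraries 1 to 3. The 2 groups did not overlap, and the log2 change was 1.53 (SE 0.23, limma adjusted p = 0.00703). The call of HNRNPC was lost when the trend on GC content was removed. The 13 genes annotated as copies of HNRNPC summed to 15.5 TPM in WT and 94.0 TPM in the knockout samples, so that reads may be divided between HNRNPC and its copies. HNRNPA3, a relative of HNRNPA1, was at 71.6, 61.8 and 71.5 TPM in WT and 184, 187 and 179 TPM in the knockout libraries (log2 change 1.41, SE 0.12, limma adjusted p = 0.00218), a call also lost with the GC trend removed.

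HNRNPA1, a repressor of many exons, measured 243, 289 and 249 TPM in WT and 469, 453 and 405 TPM in the knockout libraries. HNRNPA2B1 was at 221, 228 and 193 TPM in WT and at 329, 307 and 301 TPM in the knockout libraries. The groups did not overlap for either gene. The log2 changes were 0.73 (SE 0.12, limma adjusted p = 0.0104) for HNRNPA1 and 0.53 (SE 0.11, limma adjusted p = 0.0202) for HNRNPA2B1, which is 0.32 and 0.12 above the median of all genes, and turned to -0.10 and -0.45 when the GC trend was removed. Without knockout library 3 the adjusted p of HNRNPA2B1 was 0.0981. HNRNPA1 has 76 annotated copies, which summed to 28.4 TPM in WT and 53.6 TPM in the knockout samples. HNRNPAB, the most abundant member in both groups, was at 393, 349.6 and 546 TPM in WT and at 765, 695 and 628 TPM in the knockout libraries, and missed the threshold (log2 change 0.68, SE 0.21, limma adjusted p = 0.0588); it passed without WT library 3 (0.017) and without knockout library 2 (0.0447). For HNRNPA0, a single-exon gene, the groups overlapped at a mean of 65.1 ± 5.23 TPM (SD, n = 3) in WT and 65.9 ± 8.31 TPM (SD, n = 2) in the knockout samples.

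**Figure D2:**
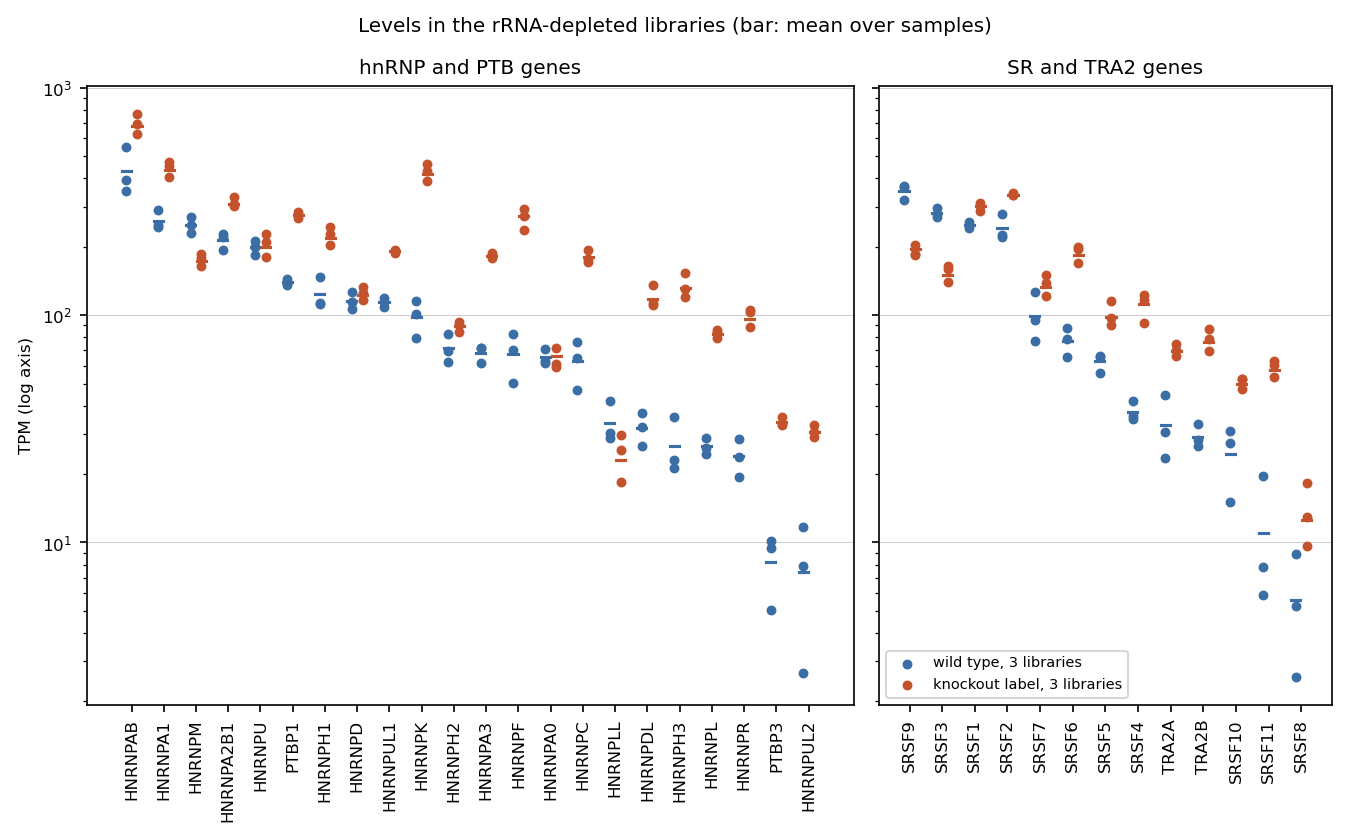
TPM of each of the 35 genes on a log axis in the 3 WT and 3 knockout rRNA-depleted libraries, each point 1 library, with a line at the mean of each group (knockout libraries 1 and 2 averaged first). HNRNPK, HNRNPF and HNRNPH3 show the knockout points far above the WT points, and SRSF3, SRSF9 and HNRNPM show them below.

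The largest rises among the hnRNP genes were in the poly(C) binding protein HNRNPK, in 2 members of the F/H group, which bind runs of G, and in a few others. HNRNPK was at 115, 78.9 and 100.7 TPM in WT and at 429, 461 and 390.2 TPM in the knockout libraries. The knockout mean of 418 ± 38.9 TPM (SD, n = 2) was 4.25 times the WT mean of 98.2 ± 18.2 TPM (SD, n = 3), and took it from rank 15 to rank 3 among the 35 (log2 change 2.09, SE 0.19, limma adjusted p = 0.00218). HNRNPF measured 50.1, 70.0 and 82.8 TPM in WT and 273, 237 and 292 TPM in the knockout libraries (log2 change 2.03, SE 0.23, limma adjusted p = 0.00384). All knockout libraries lay above all WT libraries for both genes. HNRNPH3, also of the F/H group, was at 35.6, 23.1 and 21.2 TPM in WT. In the knockout libraries it was at 154, 130.5 and 120.2 TPM, the largest log2 change of the hnRNP genes (2.29, SE 0.26, limma adjusted p = 0.00383). PBLD and RUFY2 overlap HNRNPH3 on the opposite strand, and whether the counting used strand is not given in the sources used here.

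HNRNPH1, the most abundant of the F/H group in WT, was at 111, 147 and 113 TPM in WT and at 244, 226 and 202 TPM in the knockout libraries. Its log2 change was 0.82 (SE 0.17, limma adjusted p = 0.0177), and turned to -0.38 with the GC trend removed; without knockout library 3 the adjusted p was 0.0579. HNRNPH3 therefore went from 22.1% ± 8.66 (SD, n = 3) of the level of HNRNPH1 to 59.9% ± 0.666 (SD, n = 2), a ratio within each library that no common scaling can change. HNRNPH2, the X-linked member of this group, had a mean of 71.5 ± 10.6 TPM (SD, n = 3) in WT and 89.6 ± 0.721 TPM (SD, n = 2) in the knockout samples (log2 change 0.33, limma adjusted p = 0.17).

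HNRNPL, which binds CA-rich stretches, was at 26.0, 28.8 and 24.6 TPM in WT and at 84.0, 85.9 and 79.5 TPM in the knockout libraries (log2 change 1.60, SE 0.16, limma adjusted p = 0.00269). A gene of at least 1 TPM overlaps HNRNPL on its own strand, so reads may be shared between them. HNRNPLL, the paralog of HNRNPL, measured 28.7, 41.9 and 30.3 TPM in WT and 25.5, 29.6 and 18.5 TPM in the knockout libraries (log2 change -0.53, SE 0.28, limma adjusted p = 0.198). HNRNPDL stood at 32.3, 26.5 and 37.2 TPM in WT and at 136, 112.5 and 111 TPM in the knockout libraries (log2 change 1.86, SE 0.19, limma adjusted p = 0.0029). HNRNPD, also called AUF1, which binds AU-rich elements and whose gene lies next to that of HNRNPDL, had overlapping groups at 115 ± 9.80 TPM (SD, n = 3) and 123 ± 8.63 TPM (SD, n = 2). As a result HNRNPD went from 369% ± 74.8 (SD, n = 3) of the level of HNRNPDL to 104% ± 1.05 (SD, n = 2).

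Among the remaining hnRNP genes, HNRNPR was at 28.6, 23.9 and 19.3 TPM in WT and at 103, 105 and 88.6 TPM in the knockout libraries (log2 change 1.98, SE 0.22, limma adjusted p = 0.00347), a call lost with the GC trend removed. HNRNPUL1, of the HNRNPU-like genes, was at 108, 114 and 119 TPM in WT and at 187, 193 and 191.5 TPM in the knockout libraries (log2 change 0.74, SE 0.10, limma adjusted p = 0.00589), and at an adjusted p of 0.0569 without knockout library 3. HNRNPUL2 was at 2.68, 11.7 and 7.92 TPM in WT and at 32.9, 28.98 and 30.5 TPM in the knockout libraries (log2 change 2.09, SE 0.59, limma adjusted p = 0.0439). HNRNPUL2 rested on as few as 2 reads in a library, and its adjusted p was 0.0726 without WT library 3 and 0.158 without knockout library 3. HNRNPU, a nuclear matrix protein, had the same mean in both groups within their spread, 198 ± 14.03 TPM (SD, n = 3) and 199 ± 27.2 TPM (SD, n = 2), so that its share of the summed hnRNP level went from 8.15% to 4.59%.

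PTBP1, the polypyrimidine tract binding protein that represses neuronal exons, was at 138, 144 and 136 TPM in WT and at 268, 284 and 276 TPM in the knockout libraries (log2 change 0.98, SE 0.09, limma adjusted p = 0.00255). With 61.7% GC it was the member richest in GC. PTBP3 was at 9.46, 5.02 and 10.2 TPM in WT and at 35.8, 33.2 and 32.9 TPM in the knockout libraries (log2 change 1.96, SE 0.38, limma adjusted p = 0.0146), on as few as 4 reads, and at an adjusted p of 0.0863 without knockout library 3.

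HNRNPM was the hnRNP gene that fell. It stood at 248.5, 229 and 269 TPM in WT and at 185, 178 and 165 TPM in the knockout libraries, with no overlap (log2 change -0.52, SE 0.12, limma adjusted p = 0.023). The limma call was lost without WT library 1 (adjusted p = 0.0586), without WT library 3 (0.0504) and without knockout library 3 (0.159). Its share of the summed hnRNP level went from 10.2% ± 0.677 (SD, n = 3) to 4.0% ± 0.0430 (SD, n = 2), and HNRNPK's share from 4.03% ± 0.763 (SD, n = 3) to 9.65% ± 0.329 (SD, n = 2).

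SRSF3, the smallest of the SR proteins, and SRSF9 were the SR genes that fell. SRSF3 was at 295.5, 269 and 278 TPM in WT and at 164, 159 and 139.7 TPM in the knockout libraries, 0.536 times the WT mean (log2 change -0.90, SE 0.11, limma adjusted p = 0.00461). SRSF9 was at 367, 370.4 and 319.8 TPM in WT and at 184, 186 and 203.5 TPM in the knockout libraries, 0.551 times the WT mean (log2 change -0.85, SE 0.11, limma adjusted p = 0.0055). Every knockout library lay below every WT library for both genes. In WT they ranked 2 (SRSF9) and 3 (SRSF3) of the 35 by level, and in the knockout samples 11 and 17. SRSF9 overlaps GATC on the opposite strand, and whether the counting used strand is not given in the sources used here.

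Of the SRSF genes, SRSF11, SRSF4 and SRSF6 had the largest rises. SRSF11, an SR-related protein of the spliceosome, was at 5.85, 19.5 and 7.77 TPM in WT and at 60.5, 62.7 and 53.4 TPM in the knockout libraries, the largest log2 change of all members (2.44, SE 0.51, limma adjusted p = 0.0191). It rested on as few as 7 reads in a library, and its adjusted p was 0.0751 without knockout library 3. SRSF4 was at 35.0, 36.1 and 41.7 TPM in WT and at 92.5, 122.5 and 116 TPM in the knockout libraries (log2 change 1.55, SE 0.15, limma adjusted p = 0.00254). SRSF6 was at 78.7, 87.9 and 65.2 TPM in WT and at 199, 196 and 169 TPM in the knockout libraries (log2 change 1.24, SE 0.17, limma adjusted p = 0.00574). The calls of all 7 SR and TRA2 genes that rose were lost with the GC trend removed.

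TRA2A and TRA2B are the vertebrate relatives of the fly sex determination factor Transformer-2, and bind GAA-rich enhancers. TRA2B was at 26.5, 28.1 and 33.1 TPM in WT and at 86.6, 78.7 and 69.7 TPM in the knockout libraries (log2 change 1.35, SE 0.18, limma adjusted p = 0.00539). TRA2A was at 44.3, 23.6 and 30.7 TPM in WT and at 74.4, 70.1 and 66.1 TPM in the knockout libraries (log2 change 1.10, SE 0.29, limma adjusted p = 0.036), and at an adjusted p of 0.079 without WT library 3 and 0.123 without knockout library 3. No knockout library of either gene lay within the WT range.

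SRSF2 and SRSF5 lay 0.09 and 0.23 above the median change of all genes. SRSF2 was at 225, 278 and 220.3 TPM in WT and at 344, 339 and 336 TPM in the knockout libraries (log2 change 0.50, SE 0.13, limma adjusted p = 0.039). SRSF5 was at 66.1, 65.7 and 55.9 TPM in WT and at 115, 96.6 and 90.4 TPM in the knockout libraries (log2 change 0.64, SE 0.15, limma adjusted p = 0.026). With the GC trend removed the values were -0.21 for SRSF2 and -0.32 for SRSF5. The call of SRSF2 was lost without WT library 1 (adjusted p = 0.0936), WT library 3 (0.0812) or knockout library 3 (0.158), and that of SRSF5 without WT library 3 (0.0536) or knockout library 3 (0.0922). SRSF2 overlaps MFSD11 on the opposite strand.

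The 4 remaining SR genes did not pass in this comparison. SRSF10, a splicing repressor when dephosphorylated, was at 31.0, 15.1 and 27.4 TPM in WT and at 52.2, 52.5 and 47.1 TPM in the knockout libraries (log2 change 1.05, SE 0.34, limma adjusted p = 0.0654), and passed without WT library 2 (0.041). SRSF1, the founding SR protein, had a mean of 249 ± 7.32 TPM (SD, n = 3) in WT and 300.3 ± 1.82 TPM (SD, n = 2) in the knockout samples (log2 change 0.27, limma adjusted p = 0.067). SRSF7 overlapped between groups (log2 change 0.44, limma adjusted p = 0.199), and SRSF8, the lowest of the 35 in both groups, held as few as 1 read in a library (log2 change 1.13, limma adjusted p = 0.182).

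Counted without any test, the knockout samples lay above all WT samples for 27 of the 35 and below for 4, beside 41.1% and 21.6% of all genes tested. Summed over the 22 hnRNP and PTB genes, the level was 2398, 2415 and 2491 TPM in WT and 4595, 4414 and 4143 TPM in the knockout libraries, 1.78 times the WT mean. For the 13 SR and TRA2 genes the sums were 1548, 1538 and 1422 TPM in WT and 1841, 1812 and 1724 TPM in the knockout libraries, 1.18 times the WT mean, a direction that turned with median ratio scaling (1619.6 ± 97.8 TPM, SD, n = 3, in WT and 1511 ± 1.7 TPM, SD, n = 2, in the knockout samples, 0.933 times), where the hnRNP and PTB sum was 1.4 times the WT mean. The SR sum therefore went from 61.8% ± 4.08 (SD, n = 3) of the hnRNP sum in WT to 41.1% ± 0.745 (SD, n = 2), and the 2 groups did not overlap. Within the SR sum, SRSF3 went from 18.7% ± 1.09 (SD, n = 3) to 8.48% ± 0.524 (SD, n = 2), SRSF9 from 23.4% ± 0.833 (SD, n = 3) to 10.97% ± 1.18 (SD, n = 2), and SRSF6 from 5.13% ± 0.567 (SD, n = 3) to 10.3% ± 0.721 (SD, n = 2).

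**Figure D3:**
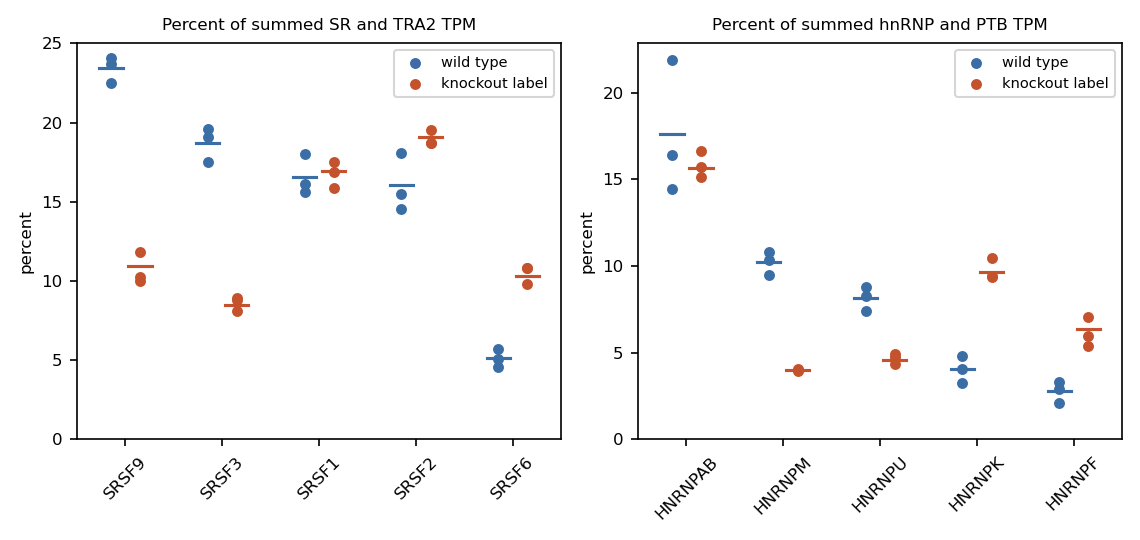
The percent of their family's summed TPM taken by 5 SR genes (left) and 5 hnRNP genes (right), each point 1 rRNA-depleted library and each line the mean over samples. SRSF3, SRSF9 and HNRNPM take a smaller share in the 3 knockout libraries than in any WT library, and HNRNPK, HNRNPF and SRSF6 a larger one.

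The poly(A) libraries were compared through the authors' deposited table. That table does not name its libraries, and it was taken as that of the poly(A) libraries because the other deposited table is the one named for the libraries free of rRNA. With an adjusted p under 0.05 the authors' deposited table called 6 members higher (17.1%) and 8 lower (22.9%), 14 in all, beside 9.55%, 10.3% and 19.9% of its 14009 genes with an adjusted p, and 21 members did not pass. The median log2 fold change of the members in the authors' deposited table was -0.11, against 0.02 for all genes. Below 0 were 22 of the 35 members and 6798 of all 14009 genes. Which genotype is the numerator of these fold changes is not stated, and positive values are read here as higher in the libraries labelled knockout.

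Lower in the authors' deposited table were SRSF6 (-0.46, adjusted p = 3.61e-06), SRSF3 (-0.38, adjusted p = 1.19e-06), HNRNPD (-0.32), HNRNPR (-0.28), HNRNPA2B1 (-0.27, adjusted p = 1.54e-05), HNRNPA1 (-0.24), HNRNPDL (-0.23) and HNRNPM (-0.17). All 8 of these fold changes were smaller in size than 0.5 on the log2 scale. Higher in the authors' deposited table were HNRNPL (0.89, SE 0.23), HNRNPLL (0.83, SE 0.20), HNRNPAB (0.80, SE 0.17, adjusted p = 6.81e-05), SRSF8 (0.71, SE 0.22), HNRNPC (0.65, SE 0.21) and HNRNPUL1 (0.36, SE 0.12). HNRNPC had the highest mean normalized count of the members in the authors' deposited table, 3381, a value that is not divided by gene length.

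Set side by side, HNRNPC, HNRNPL and HNRNPUL1 were called higher in both library types, 8.57% of the members beside 5.18% of the 12498 genes tested in both. SRSF3 and HNRNPM were called lower in both, 5.71% beside 1.96%. HNRNPA1, HNRNPA2B1, HNRNPDL, HNRNPR and SRSF6 were called higher in the rRNA-depleted libraries and lower in the authors' deposited table, 14.3% beside 3.03%, and 0 members were called the other way (all genes 0.44%). With median ratio scaling HNRNPDL, HNRNPR and SRSF6 remained of these 5 (8.57% beside 2.19%), and with the GC trend removed only HNRNPDL (2.86% beside 1.78%). Removal of the GC trend also left HNRNPC out of those higher in both and added HNRNPD to those lower in both. It put HNRNPLL lower in the rRNA-depleted libraries and higher in the authors' deposited table. The members were called higher in the rRNA-depleted libraries more often than all genes (62.9% beside 22.9%). They were also called more often in the authors' deposited table (17.1% beside 9.55% higher, 22.9% beside 10.3% lower). Such separate shares alone raise the share of members called higher in the rRNA-depleted libraries and also called in the authors' deposited table. Whether the overlaps exceed them was not tested. For SRSF6 the values were 1.24 in the rRNA-depleted libraries and -0.46 in the authors' deposited table. HNRNPK, HNRNPF and HNRNPH3, with the large rises above, had log2 fold changes of -0.04, -0.16 and -0.11 in the authors' deposited table and did not pass there. SRSF9, which fell in the rRNA-depleted libraries, was at 0.65 (SE 0.35, adjusted p = 0.187) in the authors' deposited table. The difference between library types was not tested, since the poly(A) libraries had no values of single libraries here, and library type cannot be told apart from the authors' separate processing of the 2 tables. Over the 35 members the log2 changes of the 2 types had a Spearman rho of -0.01, and over all 12498 genes 0.19, given as a description.

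**Figure D4:**
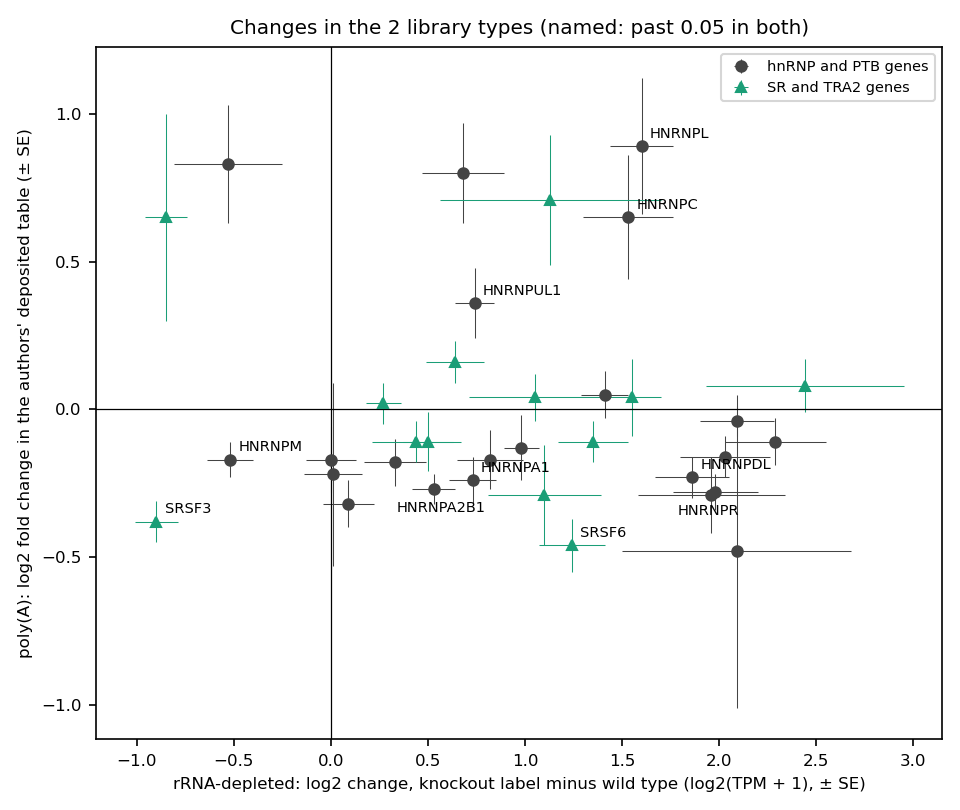
The log2 change in the rRNA-depleted libraries (x axis, log2(TPM + 1) scale) against the log2 fold change of the authors' deposited table for the poly(A) libraries (y axis), each point 1 of the 35 genes with its SE, hnRNP and PTB genes as circles and SR and TRA2 genes as triangles. Names mark the genes past 0.05 in both types. HNRNPC and HNRNPL lie at upper right, SRSF3 and HNRNPM at lower left, and SRSF6 and HNRNPR at lower right.

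The splicing machinery around these factors was described by the same fits. The counts of all 6 lists stand beside 22.9% of all genes tested called higher and 12.4% lower with TPM as deposited (11.4% and 15.1% with the GC trend removed), and 9.55% and 10.3% in the authors' deposited table. Of 11 SR protein kinases and nuclear importers, 5 rose and 1 fell in the rRNA-depleted libraries (5 and 1 with median ratio scaling, 3 and 2 with the GC trend removed), and the authors' deposited table called 2 higher and 1 lower. The largest changes were in TNPO1, the importer of HNRNPA1, at 18.9, 19.0 and 19.0 TPM in WT and 111, 101.5 and 82.5 TPM in the knockout libraries (log2 change 2.24, SE 0.18, limma adjusted p = 0.00188), and in the SR kinase SRPK2 (2.03, limma adjusted p = 0.0218, on as few as 2 reads). In the authors' deposited table TNPO1 was at 0.29 (adjusted p = 0.00621) and SRPK2 at -0.31 (adjusted p = 0.04).

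Of 24 U1, U2, Sm and U2AF proteins, which recognise splice sites and the branch point, 17 rose and 0 fell by limma (12 and 1 with median ratio scaling, 11 and 3 with the GC trend removed), whereas the authors' deposited table called 2 higher and 10 lower. SF3B6, which contacts the branch point adenosine, had a log2 change of 3.6 (limma adjusted p = 0.0162, on as few as 2 reads) and -0.11 (adjusted p = 0.514) in the authors' deposited table. SNRPF, an Sm ring protein, had 2.34 (limma adjusted p = 0.00817) and -0.72 (adjusted p = 5.97e-06) in the authors' deposited table. Of 23 tri-snRNP and catalytic step proteins, 12 rose and 4 fell (7 and 4 with median ratio scaling, 6 and 4 with the GC trend removed), with PLRG1 at 2.85 and SLU7 at 2.41, on as few as 1 and 3 reads in a library, and the authors' deposited table called 3 higher and 4 lower.

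Of 39 other splicing regulators, 24 rose and 4 fell (18 and 5 with median ratio scaling, 10 and 9 with the GC trend removed), and the authors' deposited table called 5 higher and 6 lower. RBMX, the X-linked hnRNP G, was at 25.3, 21.1 and 17.3 TPM in WT and at 114.5, 109 and 123 TPM in the knockout libraries (log2 change 2.43, SE 0.21, limma adjusted p = 0.00207), and at 0.01 (adjusted p = 0.953) in the authors' deposited table. TIA1, which binds U-rich stretches beside weak splice sites, had a log2 change of 3.47 (limma adjusted p = 0.0245) with 0 TPM in WT library 2.

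Of 14 NMD factors 7 rose and 2 fell (4 and 2 with median ratio scaling, 1 and 2 with the GC trend removed), and the authors' deposited table called 1 higher and 2 lower. RBM8A, the Y14 subunit of the exon junction complex, fell from 326, 278 and 292 TPM in WT to 47.4, 55.9 and 53.2 TPM in the knockout libraries (log2 change -2.48, SE 0.12, limma adjusted p = 0.000872), and was at -0.75 (adjusted p = 8.25e-11) in the authors' deposited table. UPF3B rose by 1.71 on the log2 scale (limma adjusted p = 0.0259). Of 12 genes of nuclear mRNA export 2 rose and 3 fell (1 and 5 with median ratio scaling, 0 and 5 with the GC trend removed), and the authors' deposited table called 0 higher and 2 lower of 11 tested. SARNP, a subunit that joins the TREX export complex, fell from 93.9, 39.6 and 86.4 TPM in WT to 4.94, 7.26 and 9.51 TPM in the knockout libraries (log2 change -3.01, limma adjusted p = 0.00704), and THOC7, a THO subunit, rose by 1.71 (limma adjusted p = 0.0356). SARNP was nearly absent from the authors' deposited table, at a mean normalized count of 0.248 without an adjusted p. Its fall therefore rests on the rRNA-depleted libraries alone, and which of its transcripts gave those reads was not tested. Of the 12 genes named from these lists, TNPO1, SNRPF, RBMX, RBM8A and SARNP were called whichever library was left out. Without knockout library 3 the limma adjusted p was 0.105 for SRPK2, 0.0518 for SF3B6, 0.0749 for PLRG1, 0.12 for SLU7, 0.0937 for TIA1, 0.124 for UPF3B and 0.165 for THOC7. The call was also lost for SLU7 without WT library 1 (0.0759), for THOC7 without WT library 2 (0.0683) and for UPF3B without WT library 3 (0.0598). SNRPF, UPF3B, THOC7 and SARNP rested on as few as 4, 4, 3 and 5 reads in a library. Of the 12 genes, SLU7 (limma adjusted p = 0.0589) and THOC7 (0.0691) lost their call with median ratio scaling. With the GC trend removed TNPO1, SF3B6, RBMX, RBM8A and SARNP were called, and the limma adjusted p of the other 7 ranged from 0.0541 (PLRG1) to 0.255 (THOC7). The medians of the 6 lists in this order were 1.0, 1.02, 0.66, 0.85, 0.68 and -0.13, beside 0.41 over all genes tested.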

How the data were processed

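RNA-seq of HMC3 cells was analysed from 2 deposited tables. Reads were processed with Trimmomatic, STAR and DESeq2 on hg38, per the submitters' processing notes. The counting tool, annotation and strand setting are not given in the sources used here. The authors deposited TPM per gene for the 6 libraries depleted of rRNA. Their other table, taken as that of the 10 poly(A) libraries, gives 1 comparison. Per the file headers it lists a mean normalized count, used as a signal without SD. It also lists, per the file headers, log2 fold changes and their SE. Wald statistics, a score, were deposited too but not used. The authors' p-values, raw and adjusted, complete that table. It holds no library values, so it was described and not retested, and a fit on counts that had been foreseen could not be made. Its fold changes were read as knockout over WT from the table's name, and because this gave 91.5% of the 177 genes called in both types, each with at least 1 in absolute log2 change, equal signs. With WT as the numerator every direction from it would be opposite. 0 columns of sample values were left unused.

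GENCODE 29 on GRCh38 matched 56927 of 60669 gene identifiers (93.8%) and gave positions, exon lengths, GC content and transcripts, and sequences were read from GRCh38. With these lengths 90.9% of TPM values above 0 were whole multiples of what 1 read is worth, to within 0.02 reads, which gave the depths. Genes reaching 1 TPM in 3 or more libraries were tested with limma 3.58.1 (trend) in R 4.3.3 on log2(TPM + 1), a scale that understates the change of low genes, with Benjamini-Hochberg adjustment over all genes at 0.05. Knockout libraries 1 and 2 were averaged on the TPM scale. The limma step was also run on simulated data. It recovered 142 of 200 genes changed by 2 on the log2 scale (71%) and called 4 others. With no gene changed it called 0. The changed genes were drawn only from genes well covered in the shallowest library. The same small spread beyond sampling noise was set for all genes. Recovery of genes with few reads was not measured. A gene that did not pass may therefore still have changed. Other steps used Python 3.11.15, numpy 2.4.6, pandas 2.3.3, scipy 1.17.1 and matplotlib 3.10.9. Alternatives were other pseudocounts, filters, scalings, removal of the GC trend, limma voom on recovered reads, thinning to 266130 reads, separate libraries with and without a replicate block, each library left out, and a stricter threshold.

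The members, gene lists and tests were chosen with earlier results of these data known. The values of single libraries were to be given for the 20 members with the largest change among those past the threshold, for HNRNPC, HNRNPA2B1, SRSF3 and SRSF10, and for the 4 members with the smallest adjusted p in the deposited table. Of each other list, the 2 genes with the largest change past the threshold and a mean of at least 5 TPM were named. HNRNPA1, HNRNPM, HNRNPLL, SRSF2 and SRSF5 were added after their values were seen, as were the genes whose printed sequences were selected. At least 1 annotated copy carries the name of 17 members. A gene of at least 1 TPM overlaps 10 members on the opposite strand and 3 (HNRNPL, PTBP3 and SRSF4) on their own. Those 10 are HNRNPA2B1, HNRNPAB, HNRNPD, HNRNPH1, HNRNPH3, HNRNPU, HNRNPUL1, SRSF1, SRSF2 and SRSF9. Reads of all these members may be shared. Of MATR3, which has 2 rows, the higher was used.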

Additional observations from a re-analysis of the deposited data

How the results depend on the processing

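The count of 25 members called in the rRNA-depleted comparison (22 higher, 3 lower) became 15 (7 higher, 8 lower) with the GC trend removed and 15 (13 higher) at an adjusted p under 0.01; leaving out 1 library at a time it ranged from 15 to 26 (13 to 23 higher, 2 to 3 lower), with 15 and 13 without knockout library 3, which leaves fewer samples. As 6 separate libraries it was 28 (25 higher, 3 lower), and with the replicate block 27 (24 higher, 3 lower). For the rRNA-depleted libraries, shares over all genes are given above only for TPM as deposited, median ratio scaling and the GC trend removed. For the authors' deposited table they are given only at 0.05. Counts under other settings and thresholds therefore do not set the members against all genes. Deviations of same-numbered libraries correlated at 0.02, -0.02 and 0.008, and those of other pairs at -0.038 to 0.027. At these depths the deviations hold much sampling noise, so the correlations cannot show whether the numbers pair the libraries. The members' median relative to all genes, 0.57, was 0.46 at a pseudocount of 0.1, 0.74 with quantile normalization, 0.20 with the GC trend removed, 0.70 with voom, and 0.42 to 0.64 leaving out 1 library. The 14 poly(A) calls (6 higher, 8 lower) became 9 (3 higher) at an adjusted p under 0.01 and 5 (0 lower) with a log2 fold change of 0.5 or more in size. Single genes changed sign as follows. Median ratio scaling: HNRNPA0 -0.31, HNRNPD -0.24, HNRNPH2 -3.4e-05, SRSF1 -0.06. The 75th percentile: HNRNPA0 -0.18, HNRNPD -0.10. Quantile: HNRNPA0 -0.09. GC trend removed: HNRNPA0 -0.91, HNRNPA1 -0.10, HNRNPA2B1 -0.45, HNRNPD -1.13, HNRNPH1 -0.38, HNRNPH2 -0.54, SRSF1 -0.64, SRSF2 -0.21, SRSF5 -0.32, SRSF7 -0.47. Voom: HNRNPA0 -0.31, HNRNPD -0.14, SRSF1 -0.01. Thinned reads: HNRNPA0 -0.15, HNRNPH2 -0.0011. Separate libraries, with or without the block: HNRNPA0 -0.03, HNRNPU 0.05. Leaving out 1 library: HNRNPA0 -0.11 to 0.08, HNRNPU -0.05 to 0.14. The log2 ratio of the summed SR level, 0.24, was -0.10 with median ratio scaling. The alternatives for sums, other gene lists under GC removal and calls in both library types were chosen after seeing the data. The causes were not tested. Depth limits the 5 members with 10 reads or fewer in a library, and not these alone. Every WT library was shallower than every knockout library, so depth and genotype go together. With all libraries thinned to 266130 reads, 21 members were called (18 higher, 3 lower). The calls of HNRNPUL2, PTBP3, SRSF2 and SRSF5 were lost there.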

Other observations

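Among the 35 members, those with the lower WT level had the larger log2 change (Spearman rho -0.68 over 35 genes). The WT level enters both quantities, and the genes share their libraries, so this is given as a description. The change of the members had a rho of 0.03 with their GC content and of 0.08 with their exon length, and over all 14669 genes it had a rho of -0.37 with GC content. In the authors' deposited table the rho of the members' fold change with GC content was 0.20.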
